A study of Mus musculus with 6 samples.

Results

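Toll-like receptors and the proteins that feed and relay their signal were followed in TKPTS, a cell line derived from the proximal tubule of the mouse kidney. The set held 10 genes chosen by name, of 29595 genes in the table: Tlr1, Tlr2, Tlr3, Tlr4, Cd14, Ly96, Lbp, Myd88, Ticam1 and Tirap. The cells had been transfected with pcDNA3.1-Hnf3a-Flag, a plasmid that carries Flag-tagged HNF3α (gene symbol Foxa1, a forkhead transcription factor), or with pcDNA3.1-Flag, the plasmid without that insert. RNA was collected 24 h later. There were 3 libraries in the Hnf3a group (genotype labelled HNF3alpha overexpression) and 3 in the pcDNA group (genotype labelled WT), all of the same cell line. HNF3α was supplied by a transfected plasmid, and no added receptor ligand is given in the labels of any library. Where a gene is given library by library, values run in the order of replicates 1, 2 and 3 of each group.

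Toll-like receptors are membrane proteins that recognise microbial molecules. Lipopolysaccharide (LPS), the outer membrane glycolipid of Gram-negative bacteria, is picked up in serum by the LPS-binding protein (Lbp), handed to CD14 (Cd14) at the cell surface, and bound by MD-2 (Ly96), which sits on TLR4 (Tlr4). TLR2 (Tlr2) recognises bacterial lipopeptides as a pair with TLR1 (Tlr1) or TLR6, and CD14 assists it as well. TLR3 (Tlr3) recognises double-stranded RNA in endosomes. The receptors signal through adaptors. MyD88 (Myd88), recruited to TLR2 and TLR4 by the bridging adaptor TIRAP (Tirap), leads to NF-κB and inflammatory cytokines, while TRIF (Ticam1), used by TLR3 and TLR4, leads also to interferon-β. In the kidney these receptors are found on tubule cells as well as on resident and infiltrating leukocytes.

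Transcripts of the capture and recognition proteins Tlr2, Cd14 and Lbp fell in the Hnf3a group, to 0.600, 0.618 and 0.777 of the pcDNA level, and in each case all 3 Hnf3a libraries lay below all 3 pcDNA libraries. The receptor Tlr4, its partner Ly96, the double-stranded RNA receptor Tlr3 and the adaptors Myd88, Tirap and Ticam1 did not pass the test. Tlr1 was too low to be tested. In all, 3 of the 9 tested genes of the set passed an adjusted p of 0.05 (edgeR's quasi-likelihood test), all 3 lower, where 3.17% of the 17824 genes tested did so in either direction, 2.13% lower and 1.04% higher. The 17824 include many genes of lower level than these 9. Fitted on the 12010 genes with at least 1 FPKM in 3 libraries, all 9 among them, 596 genes passed, 390 of them lower, with the same 3 of the set. Over all tested genes, scaled counts of the groups did not overlap in 9.81% with the Hnf3a group lower and in 9.12% with it higher, and within the set this held for the same 3 genes. The median log2 fold change was -0.058 over the 9 tested genes and 8e-04 over all tested genes. The set was chosen with earlier results of these data known, so these shares are a description.

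Promoter windows of Tlr2, Tlr3 and Myd88 are shown because Tlr2 had the smallest p of the set while the others, at similar levels in the Hnf3a group, did not pass the test. The windows were taken from RefSeq (GRCm38.p6), run from 250 bases before the start of the gene to 50 after it, and lie on the minus strand at chr3:83841559-83841858 (Tlr2), chr8:45410331-45410630 (Tlr3) and chr9:119339969-119340268 (Myd88). Capitals mark matches to the κB consensus bound by NF-κB (G bases, a purine, any bases, pyrimidines and C bases, 10 letters in all) on either strand.
Tlr2: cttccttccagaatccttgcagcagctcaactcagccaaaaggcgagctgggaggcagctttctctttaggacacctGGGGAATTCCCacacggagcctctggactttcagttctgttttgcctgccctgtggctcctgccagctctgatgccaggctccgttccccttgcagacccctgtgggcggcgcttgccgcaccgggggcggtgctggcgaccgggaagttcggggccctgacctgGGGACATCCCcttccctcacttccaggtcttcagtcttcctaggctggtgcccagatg
Tlr3: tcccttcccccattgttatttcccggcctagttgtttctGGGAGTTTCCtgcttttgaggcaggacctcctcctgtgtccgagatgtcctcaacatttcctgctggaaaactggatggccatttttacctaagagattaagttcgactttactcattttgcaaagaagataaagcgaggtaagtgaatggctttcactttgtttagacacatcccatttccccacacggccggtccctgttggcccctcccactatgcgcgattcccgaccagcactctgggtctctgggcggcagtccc
Myd88: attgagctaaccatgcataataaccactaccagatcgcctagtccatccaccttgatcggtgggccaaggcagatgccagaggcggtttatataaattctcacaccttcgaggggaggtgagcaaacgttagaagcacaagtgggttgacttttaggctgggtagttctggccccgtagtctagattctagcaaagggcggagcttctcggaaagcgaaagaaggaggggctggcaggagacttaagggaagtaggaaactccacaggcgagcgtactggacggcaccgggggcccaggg
The Tlr2 window held 3 matches, starting 173, 172 and 8 bases before RefSeq's start, of which the first 2 overlap. The Tlr3 window held 1 match, starting 211 bases before RefSeq's start, and the Myd88 window held 0. Of 32851 promoter windows of the same length, 8.46% held at least 1 match. The forkhead core motifs TGTTTAC and TGTTTGC, searched on both strands, were matched 0 times in these windows. They occur in 3.65% and 5.07% of all windows, so 0 is the usual outcome in so few windows and cannot show a lack of such sites. RefSeq's starts lie inside the genes as the deposited table bounds them, 159 bases past the table's start for Tlr2, 700 for Tlr3 and 23 for Myd88. By the table's coordinates the whole Tlr3 window, with its match, therefore lies within the gene. The same holds for the Tlr2 match nearest RefSeq's start, while the first 2 Tlr2 matches lie before the table's start. Windows were matched for 6 of the 10 genes. Those of Tlr1, Tirap and Ticam1 held 0 κB matches and 0 matches to TGTTTAC or TGTTTGC, and Lbp, Cd14, Tlr4 and Ly96 were not matched. Of the 3 genes of the set that passed the test, Tlr2 alone thus had a window. AP-1 and C/EBP motifs (TGANTCA and TTGCNNCAA, N being any base, in 7.81% and 2.08% of all windows) were matched 0 times in the windows of the 6 genes. The GC box GGGCGG (35.7% of all windows) was matched in those of Tlr2, Tlr3, Myd88, Tirap and Ticam1. Other spellings of the forkhead motif were not searched. Neither binding of HNF3α to these windows nor a link between motif matches and transcript levels was tested here.

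Total estimated counts lay between 60473818 and 71154667 per library. The plasmid's gene, Foxa1, had 69508 to 80803 estimated counts in the Hnf3a libraries and 2134 to 2416 in the pcDNA libraries. Of the kidney epithelium markers, all 7 were above the detection floor of 12 counts in every library. They summed to 641 to 650 FPKM in the Hnf3a group and 594 to 603 FPKM in the pcDNA group, with 1 of 7 higher in edgeR (the keratin gene Krt18) and a count of 1 higher in each of the 17 alternative fits. Proximal tubule markers were low. Those analysed summed to 2.92 to 3.74 FPKM, and the endocytic receptors Lrp2 and Cubn had at most 53 and 58 counts. Hnf3a replicates 2 and 3 stood apart in transcripts of other cell types. Fibroblast markers summed to 8.18 and 10.1 FPKM there, against 0.255 FPKM in Hnf3a replicate 1 and 0.126 to 0.227 FPKM in the pcDNA libraries. In Hnf3a replicates 2 and 3 all 15 leukocyte markers exceeded the floor, with summed levels of 21.9 and 23.5 FPKM, against 5 to 7 markers and 15.2 to 17.7 FPKM in the other 4 libraries. Of 9 tested leukocyte markers 0 passed in edgeR, in the DESeq2 Wald test or in limma (2 at an unadjusted p under 0.05), and of 6 tested fibroblast markers 0 passed in edgeR (4 at an unadjusted p under 0.05) and 3 in the DESeq2 Wald test. Over all tested genes, 3.17% passed in edgeR and 13.5% had an unadjusted p under 0.05. Without Hnf3a replicate 1, 5 of 15 leukocyte and 4 of 8 fibroblast markers were higher in edgeR. Endothelial markers summed to 0.572 to 0.639 FPKM in the Hnf3a group and 0.926 to 1.13 FPKM in the pcDNA group, with 1 of 5 tested genes lower in edgeR (Cdh5) and 1 higher (Tek). The call of Tek was absent in the DESeq2 Wald test, with the replicate block, in the limma fits and whenever a library was left out. Ptprc (CD45) had 3, 31 and 14 counts across the Hnf3a libraries, against 0, 7 and 4 counts across the pcDNA libraries. In a bulk sample, fewer cells that carry a transcript and less of it per cell cannot be told apart.

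In the pcDNA group the 10 genes fell in a clear order of level. Levels are in FPKM, which divides fragments by transcript length and by library size, so that genes of different length can be set side by side. Cd14 was highest at 36.6 ± 2.34 FPKM (SD, n = 3), followed by Tlr2 at 23.0 ± 1.25 FPKM and Lbp at 18.1 ± 1.45 FPKM. Next came Tlr3 at 15.8 ± 0.632 FPKM, Myd88 at 13.9 ± 0.0815 FPKM, Tirap at 7.20 ± 0.0881 FPKM and Tlr4 at 4.67 ± 0.129 FPKM. Ly96 at 3.49 ± 0.389 FPKM and Ticam1 at 1.24 ± 0.180 FPKM closed the order, above Tlr1. No neighbours in this order overlapped between libraries. The Hnf3a group kept Cd14 at the top, at 22.7 ± 0.845 FPKM (SD, n = 3), but by mean Tlr2 moved from the second place to the fourth. Tlr3 (15.3 ± 1.34 FPKM), Lbp (14.1 ± 0.622 FPKM), Tlr2 (13.9 ± 0.593 FPKM) and Myd88 (13.4 ± 0.627 FPKM) then had overlapping libraries, and so did Tlr4 (4.78 ± 0.456 FPKM) and Ly96 (4.04 ± 0.721 FPKM).

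**Figure D1:**
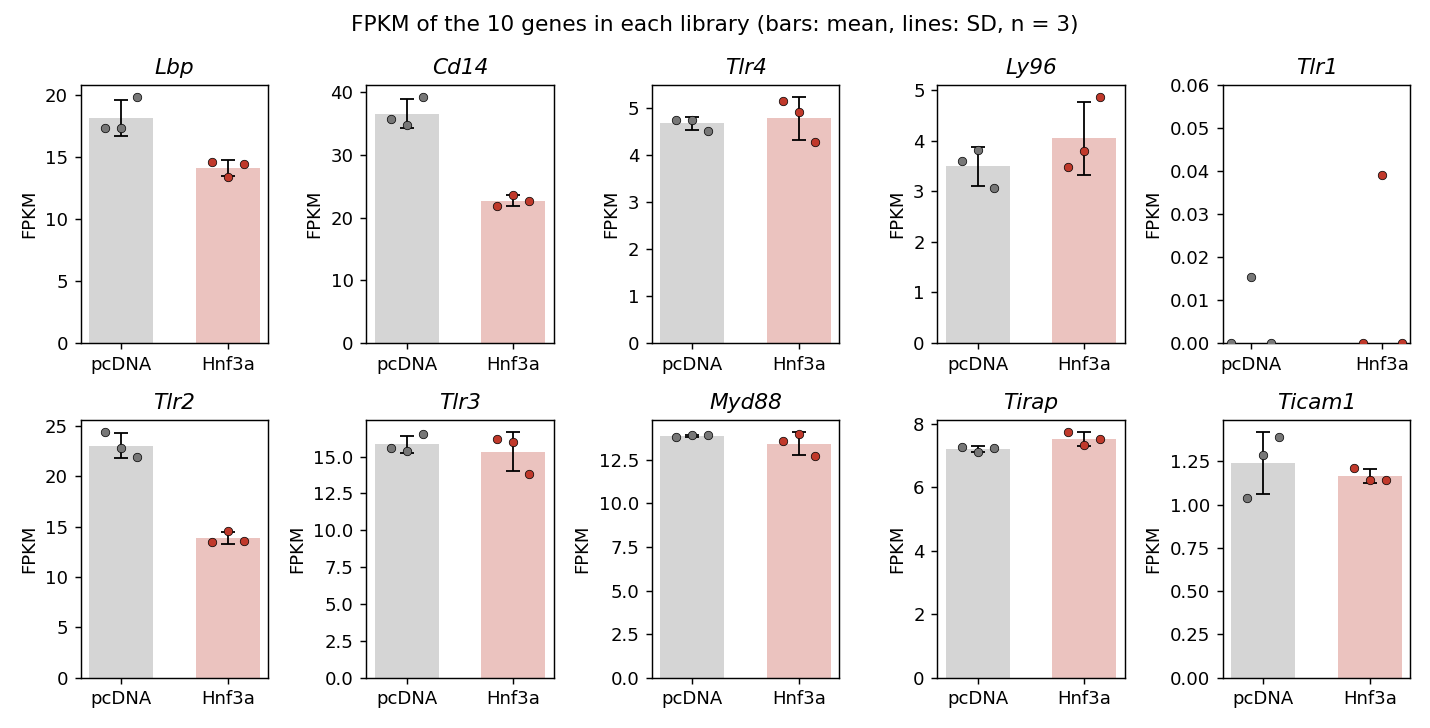
Level in FPKM (y axes, each from 0) of the 10 genes in the 3 pcDNA and 3 Hnf3a libraries. Points are libraries, and bars and lines are the mean and SD (not drawn for Tlr1). The groups separate clearly for Lbp (13.4 to 14.6 against 17.3 to 19.8 FPKM), Cd14 (21.9 to 23.6 against 34.8 to 39.2 FPKM) and Tlr2 (13.5 to 14.6 against 21.9 to 24.4 FPKM).

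The first genes in the path of LPS, those that capture it, were lower in the Hnf3a group. Lbp (ENSMUSG00000016024, plus strand of chromosome 2, 158306493 to 158320956 in GRCm38, 15 exons in its longest annotated transcript) codes for the secreted LPS-binding protein, an acute-phase protein best known from liver. Lbp stood at 14.6, 13.4 and 14.4 FPKM across the Hnf3a libraries, against 17.3, 17.3 and 19.8 FPKM across the pcDNA libraries. The groups did not overlap, with the widest gap to pcDNA replicate 3. The log2 fold change of Lbp was -0.36 (standard error 0.054, 95% interval -0.48 to -0.25, edgeR adjusted p 0.00175). Lbp lost the call in the limma fit on log2(FPKM + 1) (adjusted p 0.0572) and without Hnf3a replicates 2 and 3 (edgeR adjusted p 0.0874, log2 fold change -0.31).

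Cd14 (ENSMUSG00000051439, minus strand of chromosome 18, 36725067 to 36726798, 2 exons) codes for the co-receptor that hands LPS to MD-2 and lipopeptides to TLR2, held on the membrane by a lipid anchor or shed. Cd14 stood at 21.9, 23.6 and 22.6 FPKM across the Hnf3a libraries, against 35.8, 34.8 and 39.2 FPKM across the pcDNA libraries. Every Hnf3a library lay more than 10 FPKM below every pcDNA library. For Cd14 the log2 fold change was -0.69 (standard error 0.051, 95% interval -0.80 to -0.58, edgeR adjusted p 2.63e-06), so that Cd14 fell by 38.2%. Without Hnf3a replicates 2 and 3, an alternative added after the data were seen that leaves a lone Hnf3a library, its log2 fold change was -0.74.

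The signalling receptor for LPS itself did not differ detectably. Tlr4 (ENSMUSG00000039005, plus strand of chromosome 4, 66827584 to 66930284, 3 exons) stood at 5.14, 4.92 and 4.27 FPKM across the Hnf3a libraries, against 4.75, 4.74 and 4.52 FPKM across the pcDNA libraries. The 3 pcDNA libraries lay within the range of the Hnf3a libraries. For Tlr4 the log2 fold change was 0.023 with a 95% interval of -0.13 to 0.17 (edgeR adjusted p 0.941), an interval that does not reach the size of the change of Cd14 or Lbp. Its sign turned without Hnf3a replicate 1 (log2 fold change -0.037) and without pcDNA replicate 3 (-0.0002).

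Ly96 (ENSMUSG00000025779, plus strand of chromosome 1, 16688051 to 16709611, 3 exons), which codes for MD-2, the LPS-binding partner of TLR4, was the least precise of the LPS receptor genes. It had 259, 308 and 365 estimated counts across the Hnf3a libraries, against 251, 287 and 229 across the pcDNA libraries. Hnf3a replicate 3 was the highest and the groups overlapped. For Ly96 the log2 fold change was 0.20 with a 95% interval of -0.14 to 0.53 (edgeR adjusted p 0.676).

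Tlr2, the lipopeptide receptor, had the largest change and the smallest p of the set. Tlr2 (ENSMUSG00000027995, minus strand of chromosome 3, 83836272 to 83841767, 3 exons) stood at 13.5, 14.6 and 13.6 FPKM across the Hnf3a libraries, against 24.4, 22.8 and 21.9 FPKM across the pcDNA libraries. The spread within either group was small beside the distance between them. The log2 fold change of Tlr2 was -0.74 (standard error 0.049, 95% interval -0.84 to -0.63, edgeR adjusted p 1.23e-06). By p, Tlr2 ranked 15 among the 379 genes that were lower, Cd14 ranked 24 and Lbp ranked 129. Both Tlr2 and Cd14 kept an adjusted p under 0.05 in all 17 alternative fits, with log2 fold changes from -0.77 to -0.69 (Tlr2) and from -0.74 to -0.64 (Cd14).

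Tlr1 (ENSMUSG00000044827, minus strand of chromosome 5, 64924679 to 64933561, 4 exons), a partner with which TLR2 recognises triacylated lipopeptides, was at or under the floor of 12 counts in every library. It had 0, 11 and 0 counts across the Hnf3a libraries, against 0, 4 and 0 counts across the pcDNA libraries. Any difference was not detectable at this depth. Its neighbour and paralogue Tlr6, the other partner of TLR2, had 14, 20 and 49 counts across the Hnf3a libraries, against 10, 20 and 12 counts across the pcDNA libraries, and did not pass the test (edgeR adjusted p 0.558). Of 3282 windows of 100 bases in the annotated Tlr1 transcripts, 7.9% occur in Tlr6 transcripts too, so that low counts of the pair are uncertain. Measured per length, Tlr2 exceeded both partners by far in every library, with Tlr6 at no more than 0.175 FPKM and Tlr1 at no more than 0.0391 FPKM.

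Tlr3 (ENSMUSG00000031639, minus strand of chromosome 8, 45395665 to 45411080, 7 exons), the double-stranded RNA receptor, stood at 16.2, 16.0 and 13.8 FPKM across the Hnf3a libraries, against 15.6, 15.4 and 16.5 FPKM across the pcDNA libraries. Hnf3a replicate 3 was lowest and the others intermingled. Its log2 fold change was -0.058 with a 95% interval of -0.18 to 0.067 (edgeR adjusted p 0.760), and 0.015 without Hnf3a replicate 3. An annotated antisense gene overlaps Tlr3, while strand use in counting is not given in the sources used here.

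None of the adaptors passed the test in edgeR, at an unadjusted p under 0.05 (0 of 3, beside 13.5% of all tested genes), in the DESeq2 Wald test or in limma. Myd88 (ENSMUSG00000032508, minus strand of chromosome 9, 119335934 to 119340041, 4 exons) stood at 13.6, 14.0 and 12.7 FPKM across the Hnf3a libraries, against 13.8, 13.9 and 13.9 FPKM across the pcDNA libraries. The Hnf3a libraries lay on both sides of the pcDNA libraries. Its log2 fold change was -0.056 with a 95% interval of -0.16 to 0.051 (edgeR adjusted p 0.716).

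Tirap (ENSMUSG00000032041, minus strand of chromosome 9, 35184551 to 35200291, 7 exons), the bridge to MyD88, stood at 7.75, 7.33 and 7.52 FPKM across the Hnf3a libraries, against 7.28, 7.11 and 7.23 FPKM across the pcDNA libraries. In FPKM the groups just separated, whereas in scaled counts they overlapped. Its log2 fold change was 0.056 with a 95% interval of -0.045 to 0.16 (edgeR adjusted p 0.699). Annotated genes overlap Myd88 (Slc22a14 and Acaa1a) and Tirap (Srpr and an antisense gene), so part of their counts is uncertain.

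Ticam1 (ENSMUSG00000047123, minus strand of chromosome 17, 56269319 to 56276786, 2 exons), which codes for TRIF, was the lowest of the adaptors, with 265, 272 and 252 estimated counts across the Hnf3a libraries, against 211, 283 and 303 across the pcDNA libraries. The pcDNA libraries spread more widely than the Hnf3a libraries and enclosed them. Its log2 fold change was -0.093 with a 95% interval of -0.40 to 0.22 (edgeR adjusted p 0.875). At this precision a change of Ticam1 as large as that of Lbp lies within the interval.

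**Figure D2:**
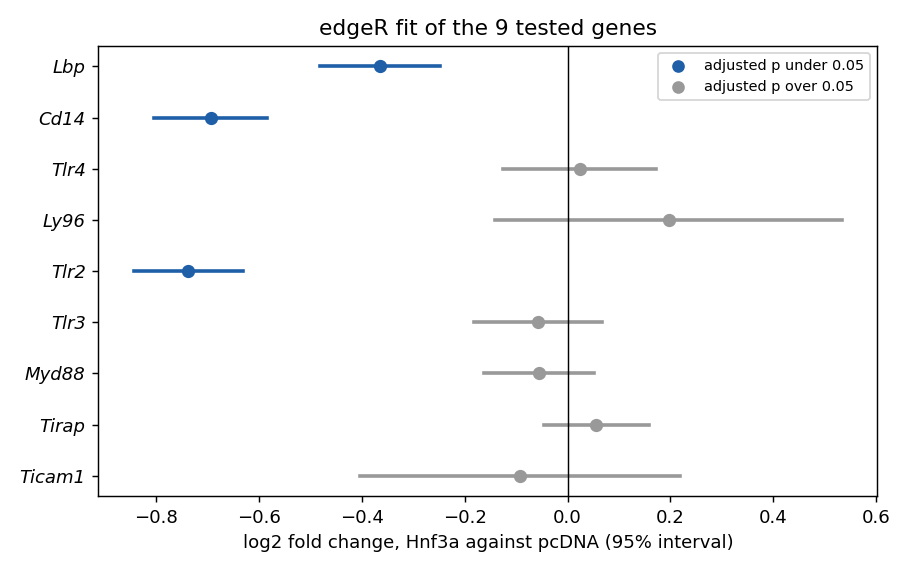
Log2 fold change of the Hnf3a group against the pcDNA group (x axis) for the 9 tested genes (y axis), with 95% intervals from the edgeR fit of 3 against 3 libraries. The intervals of Tlr2 (-0.84 to -0.63), Cd14 (-0.80 to -0.58) and Lbp (-0.48 to -0.25) lie below 0, and those of the other 6 genes include 0.

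**Figure D3:**
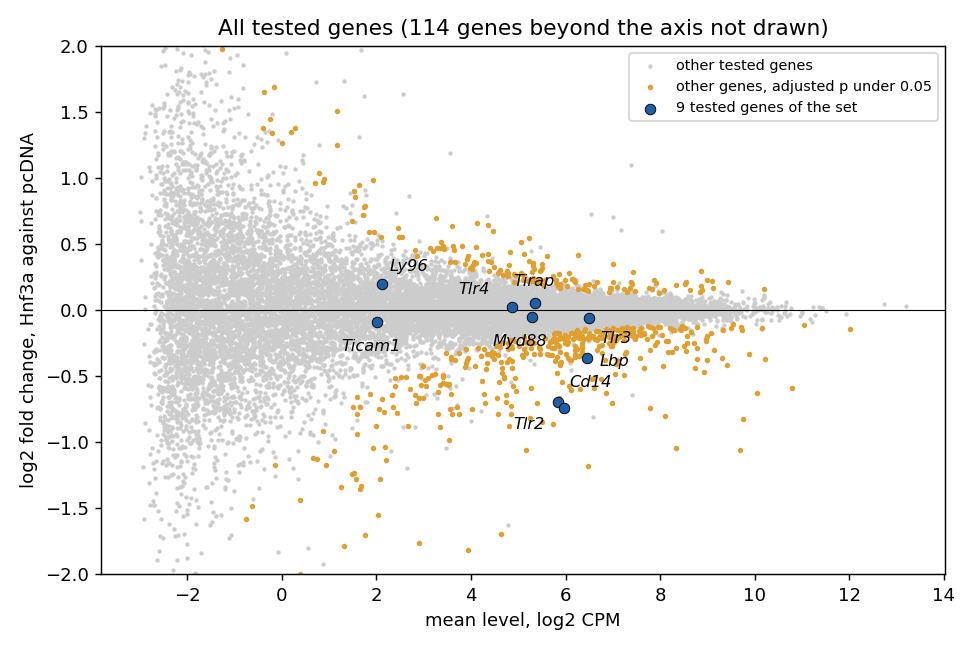
Log2 fold change (y axis) against mean level in log2 CPM (x axis) for the genes tested in the edgeR fit, with the 9 genes of the set in blue and other genes past an adjusted p of 0.05 in orange. Tlr2 and Cd14 lie near -0.7 beside genes of similar level. In all, 114 genes lie beyond the y axis and are not drawn.

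Set against Tlr4 within a library, Lbp, Cd14 and Tlr2 stood lower in the Hnf3a group, while Ly96 did not separate the groups. These ratios were chosen after the values were seen and are given as a description. The FPKM ratio of Cd14 to Tlr4 was 4.27, 4.81 and 5.31 across the Hnf3a libraries, against 7.53, 7.33 and 8.68 across the pcDNA libraries. The ratio of Tlr2 to Tlr4 was 2.92 ± 0.283 in the Hnf3a group and 4.93 ± 0.183 in the pcDNA group (SD, n = 3), and the ratio of Lbp to Tlr4 was 2.98 ± 0.348 and 3.88 ± 0.423. For these 3 ratios the libraries of the groups did not overlap. The ratio of Cd14 to Tlr2 was 1.64 ± 0.0244 in the Hnf3a group and 1.59 ± 0.171 in the pcDNA group, with all Hnf3a libraries inside the pcDNA range. The ratio of Ly96 to Tlr4 (0.862 ± 0.244 and 0.746 ± 0.0646) and that of Ticam1 to Myd88 (0.0870 ± 0.00437 and 0.0892 ± 0.0125) overlapped as well.

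**Figure D4:**
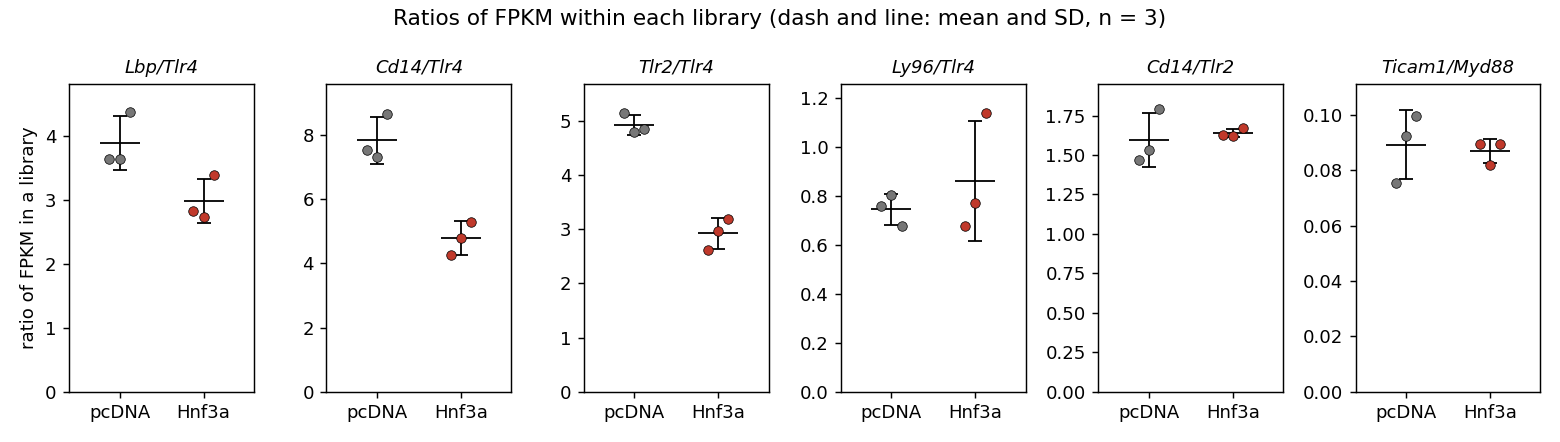
Ratio of the FPKM of 2 genes in the same library (y axes, from 0) in the pcDNA and Hnf3a groups, with points for libraries and dashes and lines for the mean and SD (n = 3). Lbp, Cd14 and Tlr2 stand lower relative to Tlr4 in every Hnf3a library, while Cd14 relative to Tlr2 lies between 1.47 and 1.79 in all 6 libraries.

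The 5 genes whose scaled counts followed Tlr2 most closely over the 6 libraries were Ccrl2, Marcksl1, Cxcl2, Gm18852 and Adam8, with Pearson's r from 0.9969 to 0.9973 among 13338 other genes with a mean of at least 1 CPM. The 6 points share the group difference, so that genes that differ between the groups stand high in this measure. Ccrl2, an atypical receptor that binds chemerin, fell by 0.87 on the log2 scale (edgeR adjusted p 2.22e-06), and Cxcl2, a neutrophil-attracting chemokine, fell by 0.70 (edgeR adjusted p 8.05e-07). Marcksl1, Gm18852 and Adam8 had log2 fold changes of -0.15, -0.29 and -0.47. Within the set, r with Tlr2 was 0.97 for Cd14 and 0.864 for Lbp, and between -0.712 (Tirap) and 0.628 (Myd88) for the others.

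Beyond the set, 85 genes in 8 lists of the same pathway were followed, of which 73 were tested. Of these, 18 were lower and 1 was higher at an adjusted p under 0.05 (edgeR), 26% in all, beside 3.17% of all tested genes. The median log2 fold change over the 73 genes was -0.059. The count was 11 without Hnf3a replicate 2, 12 in the limma fit on log2(FPKM + 0.1), and 9 without Hnf3a replicates 2 and 3. The target genes made up 9 of the 19. The lists were chosen with earlier results of these data known, so the 26% is a description and not an independent test.

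The other receptors of the family were scarce. Of 10 genes, 8 were analysed and 4 tested, and 0 passed in edgeR, in the DESeq2 Wald test or in limma. Over all tested genes, 3.17% passed in edgeR and 13.5% had an unadjusted p under 0.05. Here 1 had an unadjusted p under 0.05, the flagellin receptor gene Tlr5. It stood at 1.66, 1.68 and 1.89 FPKM across the Hnf3a libraries, against 1.39, 1.49 and 1.54 FPKM across the pcDNA libraries (log2 fold change 0.23, edgeR adjusted p 0.318). Tlr7, which recognises single-stranded RNA, and Cd180, a relative of TLR4, had at most 24 counts in any library (edgeR adjusted p 0.919 and 0.758). Among folding and transport factors and co-receptors, 0 of 5 tested genes passed in edgeR, in the DESeq2 Wald test or in limma, and 1 had an unadjusted p under 0.05. This was Unc93b1, which carries TLR3 and other nucleic acid receptors to endosomes, with a log2 fold change of -0.21 (edgeR adjusted p 0.111). The chaperone Cnpy3 had a log2 fold change of -0.053 and its relative Cnpy4 one of 0.14. The scavenger receptor Cd36 had 0, 151 and 150 counts across the Hnf3a libraries, against 0, 13 and 0 across the pcDNA libraries, so that its counts lay in the same Hnf3a libraries as the leukocyte and fibroblast transcripts. Their part in it was not tested.

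Downstream of the adaptors, 1 of 20 tested kinases, ubiquitin ligases and scaffolds passed the test (5%, beside 3.17% of all tested genes). Ikbke, a kinase that phosphorylates interferon regulatory factors, stood at 6.41 ± 0.191 FPKM in the Hnf3a group and 8.15 ± 0.131 FPKM in the pcDNA group (SD, n = 3), a log2 fold change of -0.35 (edgeR adjusted p 9.34e-05), and passed in all 17 alternative fits. Its relative Tbk1 and the ubiquitin ligases Traf6 and Peli1 had log2 fold changes of -0.11, -0.11 and -0.10 and did not pass (edgeR adjusted p 0.170, 0.228 and 0.238).

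Of 10 inhibitors of the pathway, 3 were lower (30%, beside 2.13% of all tested genes), and 0 were higher (beside 1.04%). Irak3, which codes for IRAK-M, a pseudokinase that restrains the MyD88 arm, stood at 0.669, 0.472 and 0.642 FPKM across the Hnf3a libraries, against 1.64, 1.15 and 1.52 FPKM across the pcDNA libraries. All Hnf3a libraries lay below all pcDNA libraries. The log2 fold change of Irak3 was -1.28 (standard error 0.18, edgeR adjusted p 0.000888). Tnfaip3, which codes for the deubiquitinase A20, had a log2 fold change of -0.36 (edgeR adjusted p 0.000327), and its partner Tnip1 had one of -0.22 (edgeR adjusted p 0.00485). Tnip1 did not pass without Hnf3a replicate 2, nor Tnip1 and Irak3 without Hnf3a replicates 2 and 3 together, with adjusted p up to 0.178 and 0.0508. Tank, an adaptor of TBK1 that also restrains TRAF6, had a log2 fold change of -0.14 and did not pass (edgeR adjusted p 0.249).

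Among interferon regulatory factors, 2 of 5 were lower (40%, beside 2.13% of all tested genes). Irf5, which acts with MyD88 to induce cytokines, stood at 6.07 ± 0.318 FPKM in the Hnf3a group and 7.79 ± 0.469 FPKM in the pcDNA group (SD, n = 3), a log2 fold change of -0.37 (edgeR adjusted p 0.00804). Irf1 had a log2 fold change of -0.16 (edgeR adjusted p 0.0161). Neither passed without Hnf3a replicate 2, without pcDNA replicate 1, without Hnf3a replicates 2 and 3 together, or in the limma fit on log2(FPKM + 1). Irf1 was lost also without pcDNA replicate 2 and in the other limma fits, so that Irf5 passed in 13 and Irf1 in 10 of 17 alternative fits. Irf7 and Irf8 had log2 fold changes of 0.014 and 0.075 (edgeR adjusted p 0.892 and 0.730).

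Of genes for other ways of handling or sensing LPS, 1 of 5 tested was lower (20%, beside 2.13% of all tested genes). This was Gsdmd, the pore-forming protein cut by inflammatory caspases, at 0.867 ± 0.0916 FPKM in the Hnf3a group and 1.37 ± 0.129 FPKM in the pcDNA group (SD, n = 3), a log2 fold change of -0.66 (edgeR adjusted p 0.0407). Gsdmd passed in 6 of 17 alternative fits, and lost the call when any single library was left out, without Hnf3a replicates 2 and 3 together, with the replicate block and in the limma fits. Casp4, the mouse caspase that binds LPS in the cytosol, and Casp1 had log2 fold changes of -0.23 and -0.27 without passing (edgeR adjusted p 0.0669 and 0.109). Of the 17 alternative fits, Casp4 passed, lower, in the DESeq2 Wald test alone. Nlrp3 had at most 30 counts in a library and did not pass (edgeR adjusted p 0.281).

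Of 10 endogenous ligands, 1 was higher and 2 were lower (30% in all, beside 3.17% of all tested genes). Tnc, the matrix glycoprotein tenascin-C, which can activate TLR4, stood at 22.8, 22.9 and 19.7 FPKM across the Hnf3a libraries, against 18.2, 17.7 and 17.4 FPKM across the pcDNA libraries (log2 fold change 0.28, edgeR adjusted p 0.00955). The heat shock protein genes Hspa1a and Hspa1b, near-identical copies whose counts may be exchanged, had log2 fold changes of -0.22 and -0.17 (edgeR adjusted p 0.0390 and 0.0230). Tnc lost the call without Hnf3a replicate 2, pcDNA replicate 2 or pcDNA replicate 3 and in the limma fits. Hspa1a and Hspa1b passed in 6 and 7 of 17 alternative fits, and were lost without any single library other than Hnf3a replicate 1, without Hnf3a replicates 2 and 3 together, with the replicate block and in the limma fits, and Hspa1a also with total-count scaling. Bgn, the proteoglycan biglycan, had 30, 528 and 613 counts across the Hnf3a libraries, against 26, 33 and 15 across the pcDNA libraries. Bgn did not pass in the main fit (edgeR adjusted p 0.323), but was higher in the DESeq2 Wald test and without Hnf3a replicate 1. Its counts were high in the libraries with fibroblast transcripts, whose part in it was not tested.

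Of 15 textbook target genes of the receptors, 14 were tested, and 9 were lower, 64.3% beside 2.13% of all tested genes. Whether the receptors drove these genes in any library was not tested, and the libraries include no untransfected cells. The median log2 fold change was -0.54. By p the first were Nfkbiz, Cxcl2, Ccl5 and Ccl2, which passed in all 17 alternative fits. Nfkbiz, a nuclear IκB protein induced through MyD88, stood at 22.6, 22.6 and 22.4 FPKM across the Hnf3a libraries, against 31.4, 31.5 and 31.3 FPKM across the pcDNA libraries (log2 fold change -0.49, edgeR adjusted p 7.64e-07). The chemokine genes Cxcl2, Ccl5 and Ccl2 had log2 fold changes of -0.70, -0.37 and -0.59. The other 5 were Cxcl1, Il6, Cxcl10, Nfkbia and Ifnb1. Of these, Nfkbia and Ifnb1 passed in all 17 alternative fits. The chemokine gene Cxcl10, with a log2 fold change of -0.11 (edgeR adjusted p 0.0288), passed in 8 of 17, and was lost in the limma fits, without Hnf3a replicates 2 and 3 together, and without any single library other than Hnf3a replicate 1 (adjusted p up to 0.336). The cytokine gene Il6, with a log2 fold change of -0.73 (edgeR adjusted p 0.00914), was lost in the limma fits and without Hnf3a replicates 2 and 3, and Cxcl1 in the latter alone. Ifnb1, an interferon gene that can be induced through TRIF, was singled out after its values were seen. It had 8, 23 and 19 counts across the Hnf3a libraries, against 106, 91 and 86 across the pcDNA libraries (log2 fold change -2.59, edgeR adjusted p 0.000888). Not all of the targets moved. Ptgs2, the inducible cyclooxygenase, also singled out after its values were seen, had a log2 fold change of -0.021 (edgeR adjusted p 0.895). The cytokine genes Tnf and Il1b and the chemokine genes Ccl3 and Ccl4 did not pass either (edgeR adjusted p 0.411, 0.985, 0.998 and 0.277).

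**Figure D5:**
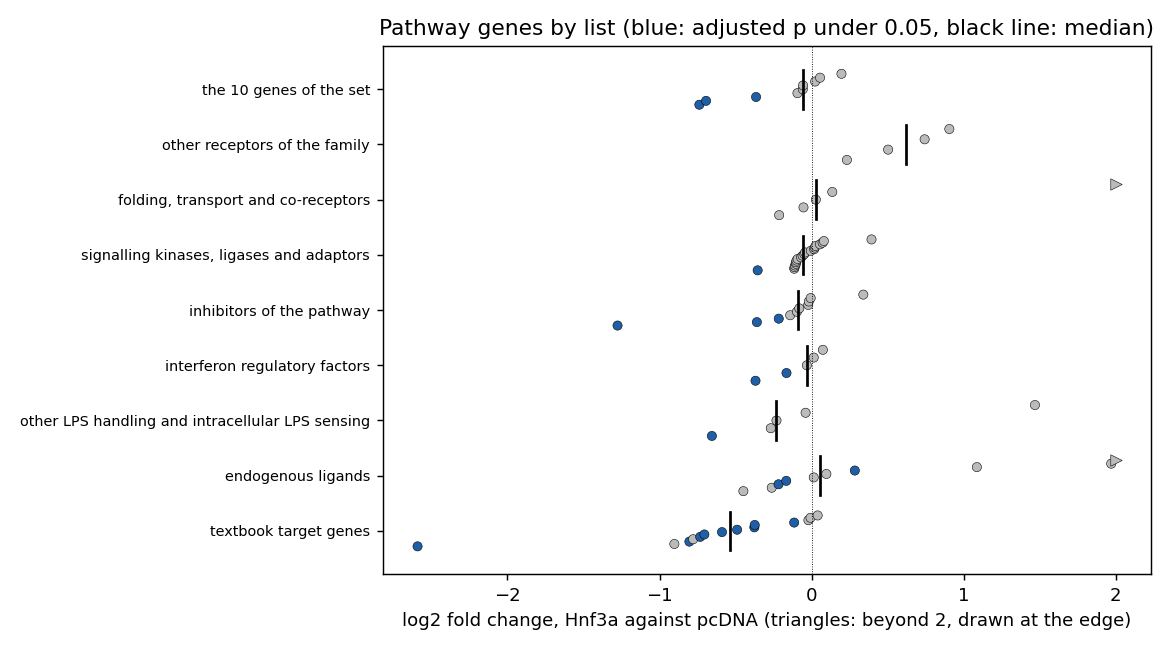
Log2 fold change of the Hnf3a group against the pcDNA group (x axis) for each tested gene of the set and of 8 further lists of the pathway (y axis), blue where the edgeR adjusted p is under 0.05, with a black line at the median. Blue points are 9 of 14 among target genes, 3 of 10 among inhibitors and 0 among the other receptors of the family, beside 3.17% of all tested genes.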

How the data were processed

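RNA of 6 samples was sequenced. The labels gave groups and replicate numbers but not whether cultures were independent, so p-values measure the spread between these samples. The submitters' processing notes name cutadapt 1.9, UMI-tools, HISAT2 2.0.4, StringTie 1.3.4d, DESeq2, edgeR and mm10. The authors deposited an estimated count, already whole, and an FPKM value for each gene. More genes sat at 4 counts (1148 to 1203 per library) than at 3 or 5, so 1 fragment was taken as about 4 counts and the floor as 12 counts, for counting error only. Gene coordinates of the table equalled those of GENCODE vM21 (GRCm38) for 26766 of 29514 shared genes.

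Genes kept by filterByExpr were scaled by TMM and tested two-sided with edgeR 4.0.16 in R 4.3.3 (glmQLFit, robust), with Benjamini-Hochberg adjustment across all of them. A standard error is the size of the log2 fold change over the root of F. Alternatives used DESeq2 1.42.0, limma 3.58.1 on log2 of FPKM with 0.1, 1 or 0.01 added, where changes of low genes are understated, other filters and scalings, and fewer libraries. An exact permutation test of 3 against 3 libraries cannot go below 0.1. The members and lists were chosen with earlier results of these data known. Named were the 10 genes, all tested target genes, up to 4 genes per other list by smallest p, Tlr6, Foxa1 and the 5 genes most like Tlr2 in log2(CPM + 0.5). No libraries were identical or agreed within sampling noise.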

Additional observations from a re-analysis of the deposited data

How the results depend on the processing

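Tlr2 and Cd14 passed the threshold, lower, in all 17 alternatives, and Lbp in 15, its exceptions being limma on log2(FPKM + 1) and the fit without Hnf3a replicates 2 and 3, an alternative added after seeing the data in which the lone Hnf3a library is assumed to vary like the pcDNA libraries. The other 6 tested genes of the set passed in 0 alternatives. The number of genes of the set that passed was 3 as each library was left out. Signs turned for genes that did not pass: Tlr4 ranged from -0.037 to 0.10 and Tlr3 from -0.10 to 0.015 on the log2 scale as single libraries were left out, and without Hnf3a replicates 2 and 3 Tlr3 was 0.032 and Ly96 -0.010.

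Over all genes, 565 passed. The count was 236, 231 and 245 in the limma fits with pseudocounts of 0.1, 1 and 0.01, and 322 without Hnf3a replicates 2 and 3. It ran from 263 to 643 as single libraries were left out, and was lowest without Hnf3a replicate 2 (263) or pcDNA replicates 1 (286), 2 (267) or 3 (349). Of the other pathway genes 19 passed, but 12, 11 and 12 in the limma fits, 9 without Hnf3a replicates 2 and 3, and 11 to 19 as single libraries were left out, with 11 without Hnf3a replicate 2. Fewer samples were fitted in the latter. Otherwise the cause was not tested. Target genes that passed numbered 8 to 9 as single libraries were left out.

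The labels number replicates 1 to 3 in both groups. Deviations of same-numbered libraries over all tested genes correlated at -0.0085, -0.0072 and -0.0017, so no shared deviation was seen. Whether same-numbered cultures were handled together is not given in the labels, and these values cannot settle it. With the replicate block 463 genes passed, 3 of them of the set and 16 among the other pathway genes. At this depth Tlr1 cannot be compared.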
